A study of Mus musculus with 4 samples.

Results

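BCL2 family genes, which encode the proteins that decide whether a cell keeps its mitochondria intact or enters apoptosis, were compared between leukemic and normal mouse erythroid cells. The 10 genes were chosen by name as the survival members Bcl2, Bcl2l1 and Mcl1, the effectors Bax and Bak1, and the BH3-only members Bcl2l11, Bid, Bbc3, Pmaip1 and Bmf. A gene was matched by a single symbol in the array's probe-to-gene table, and 9 of the 10 were found among 19938 genes so named, each with 1 probe set. Bax was not analysed here. RNA came from duplicate proliferating cultures, A and B, of 2 cell types, with 1 Affymetrix Mouse Gene ST array per culture and 4 arrays in all. MEL cells are a murine erythroleukemia line, here the single clone DS19 with a stable GATA-1/ER transgene (GATA-1 joined to the hormone-binding part of the estrogen receptor), grown in DMEM with serum and puromycin. ES-EP cells are normal erythroid progenitors derived from embryonic stem cells, grown in StemPro34 with murine SCF, dexamethasone, hIGF-1 and Epogen (erythropoietin). Cell type and medium therefore changed together and cannot be told apart. The p-values cover the variation between duplicates of these lines and nothing wider.

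Survival members such as BCL2, BCL-XL (the long product of Bcl2l1) and MCL1 hold the effectors BAX and BAK in check at the outer mitochondrial membrane. BH3-only proteins, among them BIM (Bcl2l11), BID, PUMA (Bbc3), NOXA (Pmaip1) and BMF, carry stress or death signals and bind survival members through a short helix, and some also activate the effectors directly. Once active, the effectors open the membrane, cytochrome c leaves, and caspases are switched on. In red cell precursors erythropoietin acts through STAT5 and GATA-1 to raise BCL-XL, which keeps maturing erythroblasts alive.

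The promoters of the 3 members with the largest differences for which sequence could be shown are given first, so that the control regions can be read beside the array values. Each run is the 250 bases before the outermost listed transcription start in RefSeq (GRCm38.p6), read 5′ to 3′ on the strand of the gene. Capitals mark the GC box GGGCGG and the ETS core GGAAG, searched on both strands, where CCGCCC and CTTCC are the same letters on the other strand. ETS factors include PU.1, the factor that the study followed. The windows lie at chr1:106714291-106714540 (minus strand) for Bcl2, chr2:152831729-152831978 (minus strand) for Bcl2l1 and chr7:16309333-16309582 (plus strand) for Bbc3.
Bcl2: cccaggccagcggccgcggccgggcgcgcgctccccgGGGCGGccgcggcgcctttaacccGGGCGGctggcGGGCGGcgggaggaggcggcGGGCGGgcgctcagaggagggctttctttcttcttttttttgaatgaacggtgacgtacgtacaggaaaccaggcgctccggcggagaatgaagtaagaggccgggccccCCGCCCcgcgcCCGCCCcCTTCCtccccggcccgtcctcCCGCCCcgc
Bcl2l1: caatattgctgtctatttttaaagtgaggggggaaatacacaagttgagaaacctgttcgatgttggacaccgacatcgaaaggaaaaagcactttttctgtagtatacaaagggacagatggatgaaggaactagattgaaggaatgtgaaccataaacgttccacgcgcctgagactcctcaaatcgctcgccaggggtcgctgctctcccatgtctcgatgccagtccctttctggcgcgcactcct
Bbc3: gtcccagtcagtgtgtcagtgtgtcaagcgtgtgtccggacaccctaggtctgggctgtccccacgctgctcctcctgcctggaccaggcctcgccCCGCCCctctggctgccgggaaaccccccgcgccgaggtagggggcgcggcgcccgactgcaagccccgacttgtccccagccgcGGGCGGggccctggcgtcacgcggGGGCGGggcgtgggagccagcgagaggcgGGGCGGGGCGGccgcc

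The 3 windows differed in base composition. The Bcl2 window held 74.8% G and C with 36 CpG and the Bbc3 window 76.4% with 27, whereas the outermost Bcl2l1 window held 47.6% with 12. Medians over 32851 promoter windows of this length were 52.4% and 6 CpG. GC boxes numbered 7 for Bcl2 and 5 for Bbc3, where the pair nearest the start shares 1 base, and 0 for Bcl2l1. Such a box was present in 32.7% of all windows. The ETS core occurred 1 time for Bcl2, 26 to 30 bases before the start and overlapping the longer ETS form GAGGAA, and 0 times for the windows of Bcl2l1 and Bbc3 shown. It was present in 64.1% of all windows, and GAGGAA in 23.3%. Bcl2l1 has 2 further listed starts. The middle one had 3 ETS cores in its window, and the innermost had 1 GATA core (GATAA, in 22.6% of all windows) and 0 CpG. Bbc3 also has 2 further listed starts, whose windows overlap. The middle one had 2 ETS cores, 1 GC box and 1 match to the FOXO motif TGTTTAC, and the innermost had 7 GC boxes and 0 ETS cores. The STAT motif TTCNNNGAA (7.02% of all windows), the FOXO motif (3.17%) and the p53 motif (7.13%) had no match in the 3 windows shown. A match is a description of letters only, and the arrays do not measure factor binding. The study did map PU.1 binding in MEL and ES-EP cells by ChIP-Seq (sequencing of DNA bound to PU.1). Those binding data were not used here.

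Of the 9 measured members, 2 were higher in MEL (Bcl2 and Pmaip1), 2 were lower (Bcl2l1 and Bbc3) and 5 did not pass the test. The test was limma with Benjamini-Hochberg adjustment over all 19938 genes at 0.05. That is 44.4% of the members, whereas the test called 63.8% of all genes (20.5% higher and 43.2% lower) and 68.7% of the genes above background (the 95th percentile of olfactory receptor genes, here the olfactory level) in at least 1 cell type. The share among the members was thus not above that among all genes. Of the 1027 olfactory receptor genes 48.9% were called, 461 lower and 41 higher in MEL. Of these genes 962 were near background in both cell types, so a call alone does not show that a gene was expressed. All 4 calls exceeded 2-fold, whereas 10.0% of all genes were called at that size, 5.72% higher and 4.27% lower in MEL. Each direction took 1 survival gene and 1 BH3-only gene. The median difference over the 9 members was 0.14 on the log2 scale, against -0.15 over all genes, and that shift of all genes went to between -0.03 and -0.00 when the arrays were rescaled. The arrays of the 2 cell types did not overlap for 8 of the 9 members, which also held for 81.8% of all genes.

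**Figure D1:**
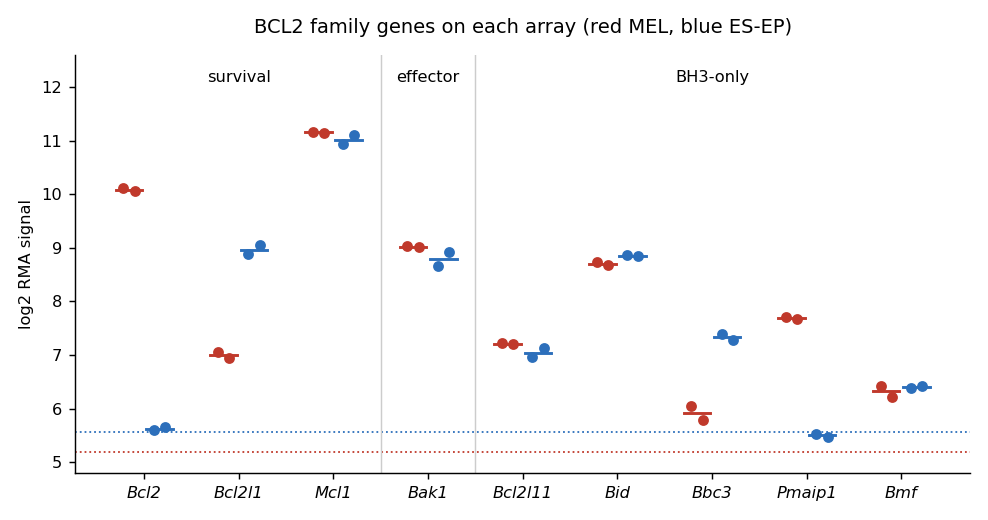
Log2 signal (RMA) of the 9 measured members on each array, red for MEL and blue for ES-EP, where points are single arrays, bars are means of 2, and dotted lines are the olfactory level (the value below which 95% of olfactory receptor genes fell, 5.19 in MEL and 5.56 in ES-EP). Bcl2 and Pmaip1 stood higher in MEL, Bcl2l1 and Bbc3 lower, and Mcl1, Bak1, Bcl2l11, Bid and Bmf lay close together.

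Survival members are described first. Bcl2, first known from the chromosome translocation of follicular lymphoma, gave log2 signals of 10.12 and 10.05 on the MEL arrays against 5.60 and 5.66 on the ES-EP arrays. Both MEL arrays lay far above both ES-EP arrays, and the ES-EP signals lay just above the level of 5.56 below which 95% of olfactory receptor genes fell in that cell type, a stand-in for background. Bcl2 was 22.0-fold higher in MEL (difference 4.46 ± 0.08, SE, n = 2 per group, adjusted p = 2.03e-11 by limma), and since the lower signal was close to background this fold is not exact. Its difference ranked 35 of 19938 from the top.

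Bcl2l1 gave 7.06 and 6.95 on the MEL arrays against 8.88 and 9.05 on the ES-EP arrays. Here the ES-EP arrays were the higher ones, and all 4 signals were above the olfactory level. Bcl2l1 was 3.90-fold lower in MEL (-1.96 ± 0.09, adjusted p = 1.97e-08), rank 267 from the bottom. The array gave 1 signal for the gene, so the long survival form and the short form that opposes it were not separated.

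Mcl1, a short-lived survival protein on which blood progenitors depend, gave 11.17 and 11.15 on the MEL arrays against 10.93 and 11.10 on the ES-EP arrays. The MEL signals were higher by a margin smaller than the gap between the ES-EP duplicates. The difference of 0.14 did not pass (95% interval -0.05 to 0.34, adjusted p = 0.173), and the interval leaves out a change of 2-fold in either direction. It passed when each array was centred on its median (0.29, adjusted p = 0.0124, in a range of 0.0124 to 1 over all alternatives).

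Bcl2 and Bcl2l1 moved in opposite directions within the arrays. The log2 signal of Bcl2 minus that of Bcl2l1 was 3.06 and 3.10 on the MEL arrays and -3.28 and -3.39 on the ES-EP arrays. The levels of different probe sets cannot be compared, but the change of their ratio between cell types, 6.42 on the log2 scale, is free of any shift common to an array. An exact two-sided permutation of 2 against 2 arrays cannot give a p below 0.333, which is the value here.

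**Figure D2:**
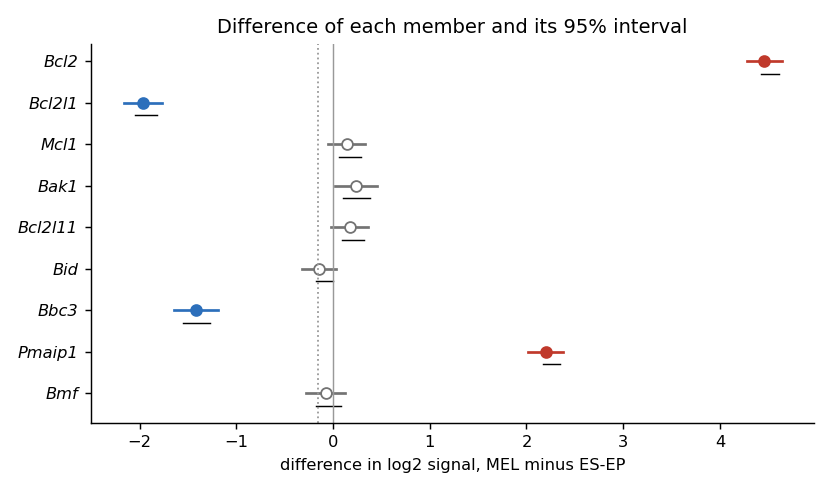
Measured members by their MEL minus ES-EP difference in log2 signal, with the 95% interval from limma, where filled points passed the test (red higher, blue lower in MEL) and open points did not. The thin black line under each point is the range over the alternatives, the dotted line is the median of all genes (-0.15), and the range of Bmf alone crosses 0.

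Of the effectors only Bak1 was measured. BAK sits in the outer mitochondrial membrane and forms the pore there. Bak1 gave 9.04 and 9.01 on the MEL arrays against 8.65 and 8.92 on the ES-EP arrays, so that the groups did not overlap but ES-EP replicate B lay near the MEL arrays. The difference of 0.24 (95% interval 0.02 to 0.45) fell short after adjustment (adjusted p = 0.0567). It passed under quantile normalization (0.27, adjusted p = 0.0242), median centring (0.39, 0.00624) and cyclic loess (0.30, 0.0163), and without ES-EP replicate B (0.37, 0.011). It also passed, at the same difference, with the replicate block (adjusted p = 0.0359), a trended and robust eBayes (0.0304) and only genes at or above the median signal (0.0384), whereas it was 0.10 without ES-EP replicate A (0.361). Over all alternatives the adjusted p ran from 0.00624 to 1. The replicate block fit took its spread almost wholly from all genes, which limits the weight of its p-value.

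Of the 5 BH3-only members 1 was higher in MEL, 1 was lower and 3 did not pass the test. Pmaip1, which encodes NOXA, a p53 target that binds MCL1, gave 7.72 and 7.68 on the MEL arrays against 5.53 and 5.47 on the ES-EP arrays. The ES-EP signals were below the olfactory level, so the size of the difference rests on background. Pmaip1 was 4.59-fold higher in MEL (2.20 ± 0.08, adjusted p = 2.96e-09, limma), rank 332 from the top.

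Bbc3, which encodes PUMA, a further p53 target that binds every major survival member, gave 6.05 and 5.79 on the MEL arrays against 7.40 and 7.28 on the ES-EP arrays. All 4 signals were above the olfactory level of their cell type, and the ES-EP arrays were the higher ones. Bbc3 was 2.67-fold lower in MEL (-1.42 ± 0.10, adjusted p = 7.64e-07, limma), rank 459 from the bottom. The MEL duplicates differed more than those of the other called members (SD 0.19), and without one or the other MEL array the difference stayed past the threshold. The log2 signal of Pmaip1 minus that of Bbc3 was 1.66 and 1.89 for MEL, against -1.87 and -1.81 for ES-EP, a change of 3.62 (exact two-sided permutation p = 0.333, the smallest possible).

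The remaining BH3-only members did not pass the test. Bcl2l11 encodes BIM, which is raised by growth factor loss, and it gave 7.23 and 7.20 on the MEL arrays against 6.96 and 7.12 on the ES-EP arrays. Its difference of 0.17 (95% interval -0.02 to 0.37, adjusted p = 0.105) passed with median centring (0.32, 0.00776), with cyclic loess (0.27, 0.0149) and without ES-EP replicate B (0.26, 0.0437), in a range of 0.00776 to 1.

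Bid, whose product links death receptors to mitochondria after cleavage by caspase-8, gave 8.73 and 8.68 on the MEL arrays against 8.86 and 8.85 on the ES-EP arrays. Its difference of -0.15 (95% interval -0.33 to 0.03, adjusted p = 0.123) was close to the median of all genes and came to -0.00 with median centring. Bmf, which is held at the cytoskeleton until released, gave 6.43 and 6.22 on the MEL arrays against 6.38 and 6.42 on the ES-EP arrays, the 1 member whose groups overlapped. Its difference of -0.07 (95% interval -0.28 to 0.13, adjusted p = 0.501) turned to 0.08 with median centring and 0.08 with cyclic loess, so no direction is given. For Bcl2l11, Bid and Bmf, as for Mcl1 and Bak1, the intervals leave out 2-fold changes but do not show equal levels.

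**Figure D3:**
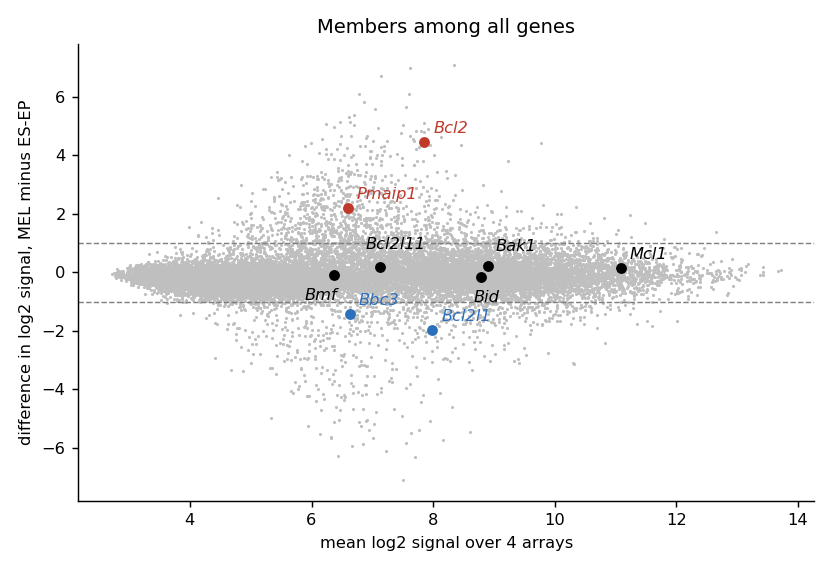
Each grey point is 1 of 19938 genes, placed at its mean log2 signal over 4 arrays (x) and its difference in log2 signal, MEL minus ES-EP (y), with the 9 members named and dashed lines at 2-fold. Bcl2 at 4.46 and Pmaip1 at 2.20 lie above the upper line, Bcl2l1 at -1.96 and Bbc3 at -1.42 below the lower one.

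Genes whose pattern over the 4 arrays was most like that of Bcl2 and Bcl2l1 were listed by Euclidean distance between signals centred on each gene's own mean. With 2 groups of 2 such likeness mostly reflects an equal difference. Nearest to Bcl2 were Sla (distance 0.034, difference 4.49), Enpp4 (0.068, 4.48) and Muc13 (0.080, 4.49). Nearest to Bcl2l1 were Usp32 (0.023, -1.96), Dpysl2 (0.031, -1.99) and Rbbp9 (0.036, -1.93).

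The other genes of the pathway were taken from 6 lists with 70 names, of which 59 were measured, and 23 of these were higher and 18 lower in MEL (69.5% called, against 63.8% of all genes). With median centring the split was 25 and 10, with cyclic loess 24 and 13. Of 12 other BCL2 family genes 5 were higher and 4 lower (75.0% called), with a median of -0.05. Bnip3, a mitochondrial BH3-like protein of low oxygen and mitophagy, gave 11.53 and 11.41 on the MEL arrays against 9.19 and 9.27 on the ES-EP arrays and was 4.71-fold higher in MEL (adjusted p = 4.24e-09, limma). Its second probe set differed by 2.39. Bcl2l15, a little studied family member, was 3.94-fold lower in MEL (4.37 and 4.36 against 6.27 and 6.42), with the MEL signals below the olfactory level.

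Downstream of the members, 10 genes of mitochondrial release and the apoptosome had a median of -0.11, with 2 higher and 3 lower in MEL and none at 2-fold. The largest call was Vdac2, a channel of the outer membrane that binds BAK, which was 1.63-fold lower in MEL (11.71 and 11.60 against 12.35 and 12.37, adjusted p = 3.41e-05, limma). Of 8 executioner caspases and caspase inhibitors, 2 were higher and 2 lower, and the caspase gene Casp6 was 2.07-fold higher in MEL.

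On the death receptor route to BID, all 7 measured genes were called, 4 higher and 3 lower, where 63.8% of all genes and 68.7% of those above background were called, with a median of 0.98 against -0.15 over all genes. Under each of the 3 rescalings 5 of the 7 were called, and 4 without MEL replicate B. Tnfrsf1a, the main receptor of TNF, gave 9.28 and 9.25 on the MEL arrays against 5.17 and 5.06 on the ES-EP arrays, a 17.7-fold difference against background (adjusted p = 3.44e-11, limma). The TRAIL receptor Tnfrsf10b was 4.11-fold higher in MEL, also against background, and Casp8, the caspase that cleaves BID, was 2.18-fold higher. The lower genes Fas, a death receptor, and Fadd and Tradd, which encode adaptors, differed by 1.19-fold, 1.33-fold and 1.16-fold. Both cell types had Fas near background. Lower calls were frequent among such dim genes, as 461 of 1027 olfactory receptor genes were called lower in MEL. Bid itself, which this route acts on, did not pass the test.

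Among 15 measured transcription factors known to act on member genes, 6 were higher and 6 lower in MEL (median -0.12). That was 80.0% called, against 63.8% of all genes. Foxo1, an activator of Bcl2l11 and Bbc3, was 3.20-fold higher in MEL, Gata1 2.21-fold, where the probe set may also read the transgene, and Spi1, which encodes PU.1, 2.08-fold. Of 7 measured genes that act on the stability or phosphorylation of MCL1 or BIM, 4 were higher in MEL and none lower (median 0.37). That was 57.1% called, against 63.8% of all genes (20.5% higher and 43.2% lower). Gsk3a, a kinase that marks MCL1 for breakdown, was 2.06-fold higher in MEL. Gsk3b, the related kinase gene on the same list, differed by -0.04 and did not pass the test (adjusted p = 0.717, limma).

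**Figure D4:**
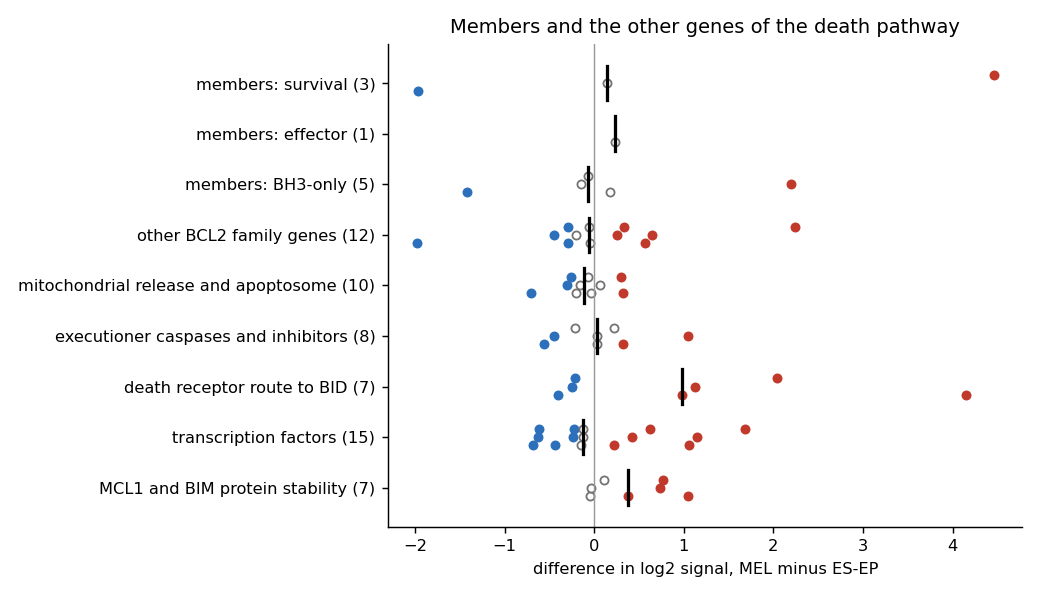
Difference in log2 signal (MEL minus ES-EP) of each measured gene of the member groups and of the 6 pathway lists, with how many were measured in parentheses. Filled points were called (red higher, blue lower in MEL), open points were not, and a black bar marks each median, from -0.12 for the transcription factors to 0.98 for the death receptor route.

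Markers were checked because BCL2 family levels vary between blood cell types, and in bulk RNA fewer cells of a type and less RNA per cell cannot be told apart. All 9 measured erythroid markers were above the olfactory level in both cell types, and 7 of them were lower and 1 higher in MEL. Over all genes 43.2% were called lower and 20.5% higher. Epor did not pass the test. The summed linear signal of the 9 was 14510 to 15185 in MEL and 22680 to 24078 in ES-EP. With 2 groups, any gene called lower moves with Bcl2l1 and Bbc3, and any gene called higher with Bcl2 and Pmaip1. Among the lower erythroid markers Slc4a1, the anion exchanger of the red cell membrane, was 44.4-fold lower in MEL. The membrane protein gene Epb42 was 9.32-fold lower and Alas2, the first enzyme of erythroid heme synthesis, 8.69-fold, whereas Gata1 was 2.21-fold higher. All 4 measured megakaryocyte markers were higher in MEL, as 20.5% of all genes were. Of these, 3 were above the olfactory level in MEL and 2 in ES-EP (Pf4 only in MEL). Gp9 differed by only 1.21-fold, and Ppbp was below the level in both. Their summed linear signal was 1093 to 1185 in MEL and 231 in both ES-EP arrays. Of the mast cell markers 5 of 6 were lower in MEL, as 43.2% of all genes and 461 of 1027 olfactory receptor genes were. Their sum was 118 to 122 in MEL and 2136 to 2416 in ES-EP, where it was almost all Ms4a2. Fcer1a, Cpa3, Cma1 and Mcpt8 were below the level in both cell types. The part of any of these in the results above was not tested. Of the B cell, T cell, macrophage and granulocyte, and embryonic stem cell markers, 1 to 2 per list were above the level in either cell type.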

How the data were processed

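RNA of 2 MEL and 2 ES-EP cultures was hybridized to Affymetrix Mouse Gene ST arrays. The authors deposited log2 signals that, by their labels, come from RMA in GeneSpring GX (version not given in the sources used here), 1 column per array (35557 probe sets, values from 2.27 to 14.44, array medians 5.67 to 5.84). Probe sets with 1 symbol (21789) were kept, those with several (1621) or unnamed here (12147) were not, and the set with the highest mean over 4 arrays stood for each gene. Symbols were updated by Entrez number (21698 matched). The difference MEL minus ES-EP was fitted in limma 3.58.1 under R 4.3.3 (lmFit and eBayes, two-sided p, 2 residual and 8.20 prior degrees of freedom) over all genes, a step also tested on simulated data. The study's methods average the replicates and take the fold of the means, with no test, and its results use a 2-fold rule. No detection calls were used. Instead, a signal at or below the 95th percentile of 1027 olfactory receptor genes was called near background. ± is the SE of a difference. The number of arrays limits the precision.

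Members, lists and tests were chosen with earlier results of these data known. Named list genes were called genes at 2-fold or more, up to 5 per list, or else the called gene with the largest difference. Fas, Fadd, Tradd, Gsk3b and the markers named with folds fall outside this rule and were named after their values were seen. Promoter windows were cut from RefSeq sequences, and motifs were searched on both strands, the p53 motif by its usual pattern. Alternatives were quantile normalization, median centring, cyclic loess, 2 filters on dim genes, averaging a gene's probe sets, fitting over every probe set, the letters A and B as a replicate block, a trended and robust eBayes, adjustment by Holm, testing beyond 1.2-fold, the 2-fold rule and omission of each array. Figures used Python 3.11.15 and matplotlib 3.10.9.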

Additional observations from a re-analysis of the deposited data

How the results depend on the processing

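Bcl2, Pmaip1, Bcl2l1 and Bbc3 kept their direction and their call under all 15 alternatives with a test. Their differences were 4.43 to 4.61, 2.17 to 2.35, -2.05 to -1.81 and -1.55 to -1.27. Only the rescalings and the omission of an array could change a member's difference or direction. The other alternatives kept the main difference by construction and bear on the call alone. The number of members higher in MEL was 2, but 5 after median centring, 4 after cyclic loess and 2 to 4 when 1 array was left out (4 without ES-EP replicate B); 2 were lower throughout. The difference of Bmf was 0.075 after median centring, 0.083 after cyclic loess, and -0.176 to 0.029 when 1 array was left out (0.029 without MEL replicate B), and it passed in none of them. Pathway genes numbered 23 higher and 18 lower, against 10 lower with median centring, 11 and 1 with Holm's adjustment, 15 and 6 in the test against 1.2-fold, 9 and 1 under the 2-fold rule, and 20 to 24 and 10 to 16 when 1 array was left out (10 lower without MEL replicate B). Letters A and B do not state a pairing, and deviations of same-letter arrays from their group means correlated at -0.036 over genes. With the replicate block 3 members were higher and 2 lower, Bak1 being added (adjusted p = 0.0359), and 23 and 17 pathway genes. That fit leaves 1 residual degree of freedom per gene and gave Bcl2l1 an adjusted p of 1.62e-78 (limma). Its p-values thus rest almost wholly on the spread shared over all genes and are too small to be taken at face value. With 1 array left out, the lone array was assumed to vary like the other group. The cause of these changes was not tested. Signal near background limits the folds of Bcl2 and Pmaip1.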

Other observations

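Some genes outside the naming rule were looked at after their values were seen. Cflar, which encodes the caspase-8 inhibitor FLIP, differed by 0.98 (adjusted p = 2.32e-06, limma), and its other probe sets by 1.17 and 0.98, so that the activator Casp8 and its inhibitor were both higher in MEL. Probe sets of Cycs, which encodes cytochrome c, did not all give the same result. The brightest, which stood for the gene, differed by 0.07, and the others by -0.03 and 0.55. Only the set with 0.55 passed (adjusted p = 0.0102, limma over all named probe sets). Foxo3, a further activator of Bcl2l11 and Bbc3, was 1.53-fold lower in MEL, opposite to Foxo1. Of the genes acting on MCL1, the ubiquitin ligase gene Huwe1 was 1.66-fold and the deubiquitinase gene Usp9x 1.29-fold higher in MEL, beside the Mcl1 difference of 0.14.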
